A study of Mus musculus with 10 samples.

Results

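These results describe p53, which mouse cells make from the gene Trp53, and 9 of the genes it is known to switch on, in CD8 T cells taken from mouse melanomas. The 10 genes were selected on measured values of the NFAT5 KO against WT contrast in these libraries, with Trp53 as the factor and Cdkn1a, Mdm2, Ccng1, Bax, Pmaip1, Fas, Bbc3, Trp53inp1 and Phlda3 as targets. They are 10 of the 54408 genes counted, and all 10 passed the filter on low counts. Because of how they were selected, their levels and fold changes between genotypes are given as a description, with no test. The tests below concern other genes of the pathway, and how the 10 genes varied among libraries of 1 genotype.

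The NFAT5 KO group held 5 libraries of P14 CD8 T cells with floxed Nfat5 alleles and 1 copy of a Cre transgene under the Cd4 promoter. The WT group held 5 libraries of P14 CD8 T cells that carried the same floxed alleles without Cre. P14 cells bear a transgenic T cell receptor for the gp33 peptide, and the B16-gp33 melanoma expresses that peptide. Cells of C57BL/6 background were activated in culture for 48 hours and 5000000 were transferred into mice that bore tumours under the skin. The CD8 T cells that had entered the tumours were sorted 7 days after transfer. The Cd4 promoter is active during thymic development, before the cells were activated and transferred. Separate mice per library are not stated in the labels, and p-values therefore reflect library-to-library spread that may be technical. Libraries are named by genotype and title number. Values are listed in the order 678_3, 678_5, 678_6, 679_2 and 679_6 for NFAT5 KO, and 678_2, 678_4, 679_3, 679_4 and 679_5 for WT.

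p53 is a transcription factor that is held at low levels by constant breakdown and accumulates when DNA is damaged or growth is forced, so much of its control acts on the protein and not on its RNA. It binds DNA as a tetramer, and its usual binding site is a pair of like sequence elements with a short spacer between them. Its targets stop the cell cycle, start cell death, repair DNA, or feed back on p53 itself. In lymphocytes p53 is known as a brake on division and as a trigger of death after damage.

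The libraries held 22444310 to 32001285 estimated counts. Nfat5 had 12.2, 12.6, 11.6, 26.75 and 11.9 CPM (counts after scaling every library to the same total) in NFAT5 KO libraries, against 18.02, 17.2, 18.3, 9.20 and 14.2 CPM in WT libraries. A count over the whole gene does not separate the floxed part from the rest, so it does not check the labels. NFAT5 KO 679_2 had the most Nfat5 of all libraries and WT 679_4 the least, and both also stood apart in the genes below. The 8 T cell markers summed to 8139 to 8442 CPM in NFAT5 KO and 7586 to 8556 CPM in WT libraries. The 9 macrophage markers summed to 20.7 to 70.65 CPM in NFAT5 KO and 54.9 to 140.1 CPM in WT libraries. All 8 macrophage markers that were tested had negative log2 fold changes, and 1 of them, Adgre1, passed the threshold. B cell markers stayed at or below 0.0448 CPM in NFAT5 KO and 1.36 CPM in WT libraries, and Pax5 was at 0 in all libraries. The 6 melanoma markers summed to 0.916 to 3.14 CPM in NFAT5 KO and 1.19 to 3.40 CPM in WT libraries, with Sox10 at 0 in all. The 5 markers of fibroblasts and endothelium summed to 35.3 to 50.4 CPM in NFAT5 KO and 39.7 to 69.4 CPM in WT libraries. Nearly all of that was Pecam1, which T cells can also express, and Pdgfra and Cdh5 were at 0 in all libraries.

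The proximal promoters of the genes show where p53-like elements lie relative to their start sites. RefSeq windows of GRCm38.p6, from 250 bases before to 50 bases after the start, were matched for 8 of the 10 genes, and Trp53inp1 and Pmaip1 were not matched. Each window was searched for the consensus p53 half-site, a pattern of 10 letters that is its own reverse complement and so covers both strands. It was found in 5 of the 8 genes (62.5%), against 2582 of 27025 genes in the table (9.55%). A pair of elements with a spacer of at most 13 bases was found in Cdkn1a alone of the 8, and in 20 genes (0.074%) in all. The 5 stretches are shown 5′ to 3′ on the strand of the gene, each with 25 flanking bases on either side and the matches in capitals, because they are the only windows of the 8 genes with a match. They lie at chr11:69580259-69580318 (plus strand) for Trp53, chr17:29090881-29090962 (plus) for Cdkn1a, chr10:117710910-117710969 (minus) for Mdm2, chr11:40755437-40755496 (minus) for Ccng1 and chr7:45467065-45467124 (minus) for Bax.
Trp53: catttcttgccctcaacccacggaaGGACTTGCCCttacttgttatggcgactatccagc
Cdkn1a: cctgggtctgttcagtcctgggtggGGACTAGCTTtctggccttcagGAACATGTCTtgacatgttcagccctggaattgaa
Mdm2: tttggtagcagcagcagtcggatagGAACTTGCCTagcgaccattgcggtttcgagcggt
Ccng1: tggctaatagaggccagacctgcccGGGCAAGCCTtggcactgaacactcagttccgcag
Bax: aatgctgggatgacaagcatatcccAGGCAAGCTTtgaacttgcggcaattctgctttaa
None of the 5 stretches overlaps an annotated exon. The matches begin at -75 in Trp53, at -73 and -51 in Cdkn1a, at -186 in Mdm2, at -185 in Ccng1 and at -201 in Bax, counted from the transcription start. For Cdkn1a this is the upstream start, 29090979. The matching elements of Cdkn1a are separated by 12 bases. Only exact matches were counted, so near matches in these stretches, also next to those of Cdkn1a, are not marked. The windows of Phlda3, Bbc3 and Fas, and a further window of Cdkn1a at its downstream start 29093769, held no match. This says only that these letters are not in these windows.

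Taken as a group, the 10 genes had higher mean levels in NFAT5 KO cells, and the targets other than Mdm2 differed more between genotypes than Trp53 did. All 10 log2 fold changes (NFAT5 KO over WT, edgeR quasi-likelihood model) were positive, with a median of 0.60. Over the 13081 genes tested, the median was 0.02 and 51.8% were positive. In 5 of the 10 genes (Cdkn1a, Bax, Pmaip1, Bbc3 and Trp53inp1) every NFAT5 KO library was above every WT library, as in 3.92% of all genes. Over all genes 9.01% passed an adjusted p of 0.05, 3.38% as higher and 5.63% as lower. The signs, the sizes and the count without overlap restate the choice of the 10 genes and carry no weight of their own. The same holds for the comparison of the targets with Trp53. In sorted bulk cells, more cells of a kind and more RNA per cell cannot be told apart.

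**Figure D1:**
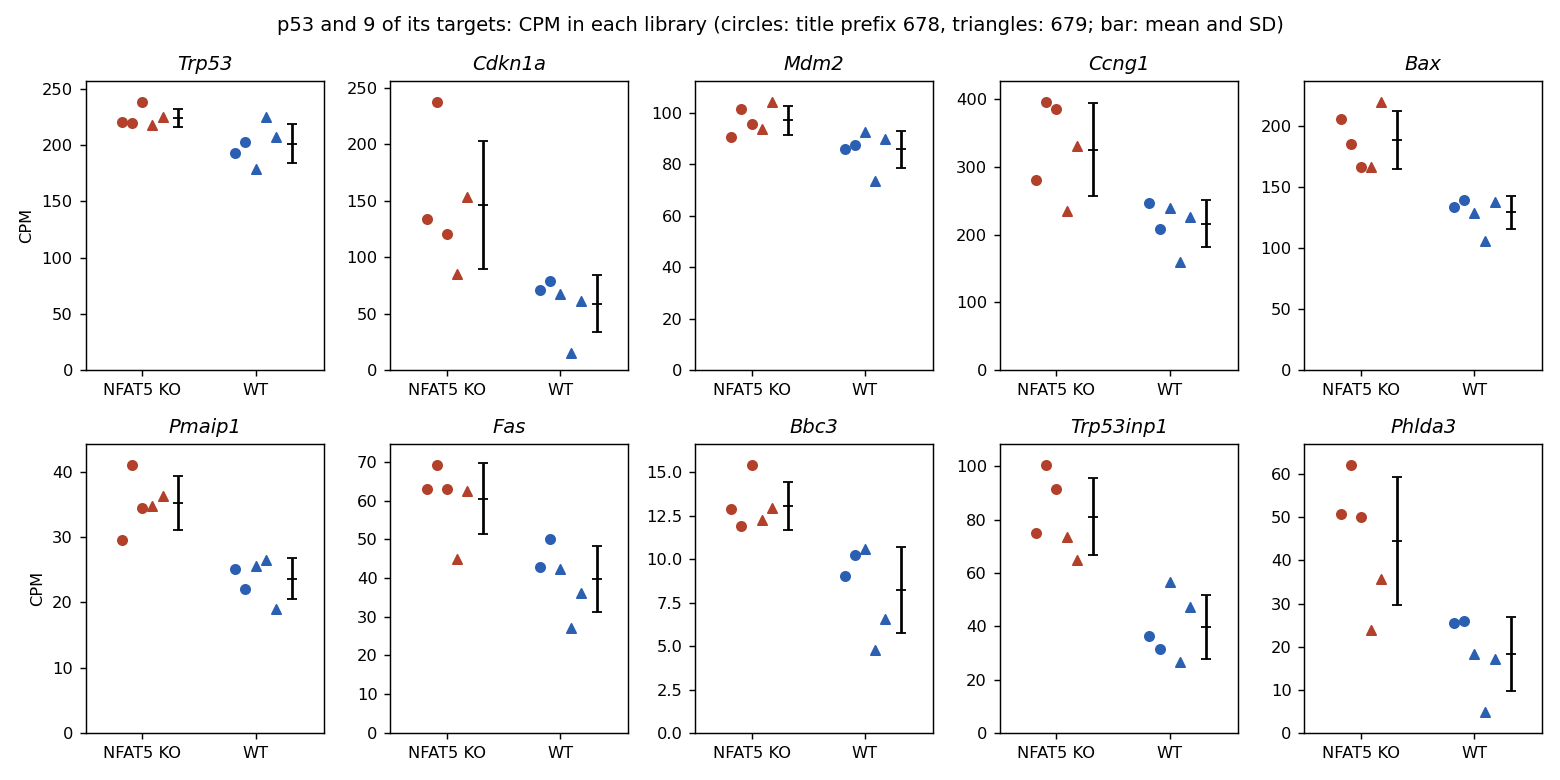
CPM of each of the 10 genes in every library (vertical axes from 0), NFAT5 KO left and WT right, with circles for title prefix 678, triangles for 679 and a bar for the mean and SD. Cdkn1a, Bax, Pmaip1, Bbc3 and Trp53inp1 show no overlap between genotypes, while Trp53 and Mdm2 lie close together.

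Trp53, the factor itself (ENSMUSG00000059552, GRCm38 chromosome 11, 69580359 to 69591873, plus strand), differed little. It had 220.2, 219.7, 238, 218 and 225 CPM in NFAT5 KO libraries, against 193, 202, 179, 225 and 207 CPM in WT libraries. WT 679_4, the highest WT library, lay within the NFAT5 KO range, and the other WT libraries lay below it. The means were 224 ± 8.02 CPM in NFAT5 KO and 201 ± 17.1 CPM in WT (SD, n = 5 each), a log2 fold change of 0.16 (SE 0.08). The processed pseudogene Trp53-ps had a mean count of 0 and drew no reads from Trp53. Transcript Trp53-203 made up 49.8% ± 14.9 of the gene's TPM (an abundance scaled by transcript length and library total) in NFAT5 KO and 46.7% ± 10.9 in WT, and Trp53-201 made up 30.04% ± 12.6 in NFAT5 KO and 34.75% ± 10.5 in WT. These shares differed by less than their spread.

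Mdm2 encodes the ubiquitin ligase that marks p53 for breakdown, and p53 in turn switches Mdm2 on. Its levels were 90.5, 102, 95.9, 93.8 and 104 CPM in NFAT5 KO libraries, against 85.9, 87.5, 92.45, 73.5 and 89.9 CPM in WT libraries. The groups overlapped only through WT 679_3, which was above NFAT5 KO 678_3. The log2 fold change of Mdm2 (chromosome 10, 117688875 to 117710758, minus strand) was 0.18 (SE 0.09), close to that of Trp53. Both values were well below those of the other 8 genes, which lay between 0.55 and 1.32.

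Ccng1 encodes cyclin G1, which brings a phosphatase to Mdm2 and so also acts on the p53 loop. Its CPM were 281, 395, 386, 235 and 330.2 in NFAT5 KO libraries, against 247, 209, 239, 159.7 and 227 in WT libraries. NFAT5 KO 679_2 fell below 2 WT libraries, and the other NFAT5 KO libraries were above all of them. The log2 fold change was 0.59 (SE 0.15; chromosome 11, 40748552 to 40755311, minus strand).

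Trp53inp1, a stress-induced nuclear protein that enhances p53 activity, differed more. It had 75.1, 100.5, 91.5, 73.7 and 64.8 CPM in NFAT5 KO libraries, against 36.5, 31.4, 56.6, 26.7 and 47.4 CPM in WT libraries. The groups did not overlap, and the lowest NFAT5 KO library was 679_6. The log2 fold change was 1.03 (SE 0.20; chromosome 4, 11156431 to 11174379, plus strand). It was 1.39 among libraries of title prefix 678 and 0.66 among those of prefix 679. The main coding transcript, Trp53inp1-201, made up 54.3% ± 9.30 of its TPM in NFAT5 KO and 62.5% ± 9.34 in WT.

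Cdkn1a encodes p21, an inhibitor of the cyclin-dependent kinases and the target through which p53 stops the cell cycle. It had 133, 237, 121, 85.5 and 153 CPM in NFAT5 KO libraries, against 71.1, 78.6, 67.5, 14.9 and 61.2 CPM in WT libraries. Every NFAT5 KO library exceeded every WT library, and WT 679_4 was far below the other WT libraries. The means were 146 ± 56.5 CPM in NFAT5 KO and 58.7 ± 25.3 CPM in WT, with a log2 fold change of 1.32 (SE 0.37), the largest of the 10. It was 1.06 without WT 679_4 and 1.055 without NFAT5 KO 678_5. Cdkn1a (ENSMUSG00000023067) lies on chromosome 17, 29090976 to 29100727, plus strand. Its transcript Cdkn1a-202 starts at 29090979, downstream of the pair of elements printed above, and made up 88.6% ± 0.522 of the gene's TPM in NFAT5 KO and 86.7% ± 3.12 in WT. Cdkn1a-201, which starts at 29093769, made up 10.6% ± 0.37 in NFAT5 KO and 11.2% ± 1.37 in WT, so both genotypes used mainly the upstream start. A gene model on the opposite strand overlaps its exons, with a mean count of 5.2.

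Phlda3 encodes a small protein that keeps the kinase AKT from the membrane. It had 50.6, 62.1, 50.02, 23.8 and 35.6 CPM in NFAT5 KO libraries, against 25.5, 25.9, 18.3, 4.79 and 17.1 CPM in WT libraries. NFAT5 KO 679_2 lay below WT 678_2 and WT 678_4, and the other 4 NFAT5 KO libraries were above all WT libraries. The log2 fold change was 1.28 (SE 0.38; chromosome 1, 135766119 to 135769136, plus strand). It was 1.02 without WT 679_4 and 1.42 without NFAT5 KO 679_2.

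Another 4 of the genes act in cell death. Bax encodes a protein that opens the outer mitochondrial membrane. It had 205, 185, 166, 166 and 219 CPM in NFAT5 KO libraries, against 133.5, 139.6, 129, 106 and 138 CPM in WT libraries. The groups did not overlap, and the log2 fold change of 0.55 had the smallest SE of the 8 more changed targets, at 0.11. Bax lies on chromosome 7, 45461697 to 45466898, minus strand, and shares exons with the gene model Gm45808 on the same strand, which had a mean count of 41.9. Reads of that model and of Bax cannot be fully told apart.

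Pmaip1 (NOXA) and Bbc3 (PUMA) encode BH3-only proteins that neutralise the BCL2 family members that hold Bax in check. Pmaip1 had 29.6, 41.0, 34.5, 34.8 and 36.2 CPM in NFAT5 KO libraries, against 25.1, 22.1, 25.6, 26.5 and 18.9 CPM in WT libraries. Bbc3 had 12.9, 11.9, 15.4, 12.3 and 12.95 CPM in NFAT5 KO libraries, against 9.01, 10.3, 10.6, 4.79 and 6.57 CPM in WT libraries. Neither gene overlapped between genotypes, although the lowest NFAT5 KO library of each stood close to the highest WT library. The log2 fold changes were 0.58 (SE 0.14) for Pmaip1 and 0.67 (SE 0.23) for Bbc3. Bbc3 lies on chromosome 7, 16308393 to 16318205, plus strand. About as much of its TPM was given to Bbc3-203, a transcript with a retained intron (47.2% ± 6.03 in NFAT5 KO and 50.03% ± 5.92 in WT), as to the coding Bbc3-201 (44.3% ± 2.93 in NFAT5 KO and 41.5% ± 7.37 in WT). A Bbc3 count therefore stands only in part for RNA that encodes the protein.

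Fas encodes the death receptor through which FAS ligand kills activated T cells. It had 62.95, 69.15, 63.1, 44.9 and 62.5 CPM in NFAT5 KO libraries, against 42.85, 50.2, 42.45, 27.2 and 36.1 CPM in WT libraries. NFAT5 KO 679_2 lay below WT 678_4 and stood apart from the other NFAT5 KO libraries. The log2 fold change was 0.61 (SE 0.17; chromosome 19, 34290666 to 34327772, plus strand), and 0.68 without NFAT5 KO 679_2.

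**Figure D2:**
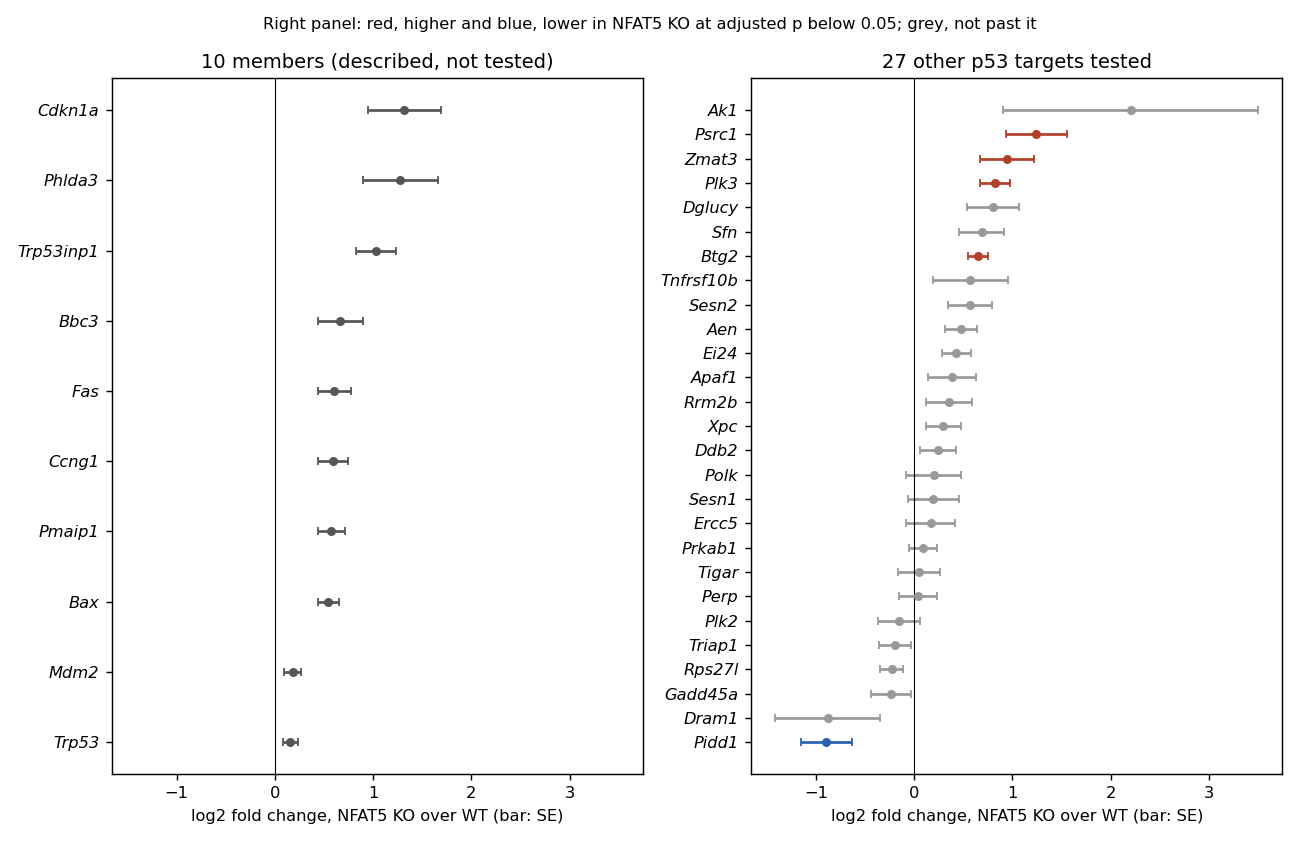
Log2 fold change, NFAT5 KO over WT, with SE (horizontal axis), for the 10 genes at left and for 27 other p53 targets at right. Trp53 and Mdm2 stand lowest at left, and at right Psrc1, Zmat3, Plk3 and Btg2 (red) and Pidd1 (blue) passed an adjusted p of 0.05.

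Per length, in TPM, Bax had the highest level of the 10 genes in both genotypes. The order in NFAT5 KO was Bax (399 ± 33.2), Cdkn1a (219 ± 95.8), Trp53 (164 ± 11.0), Ccng1 (110.1 ± 23.4), Fas (54.45 ± 6.44), Phlda3 (49.96 ± 18.3), Mdm2 (49.5 ± 2.06), Bbc3 (17.65 ± 2.53), Trp53inp1 (17.5 ± 4.10) and Pmaip1 (16.6 ± 2.57). In WT it was Bax (274 ± 35.7), Trp53 (146 ± 8.07), Cdkn1a (86.2 ± 38.8), Ccng1 (75.8 ± 15.7), Mdm2 (43.6 ± 7.14), Fas (35.4 ± 7.52), Phlda3 (20.6 ± 9.97), Bbc3 (11.3 ± 3.78), Pmaip1 (11.2 ± 1.05) and Trp53inp1 (8.56 ± 3.58). The ranges of neighbours in NFAT5 KO were apart between Trp53 and Ccng1, between Ccng1 and Fas, and between Mdm2 and Bbc3. In WT they were apart between Bax and Trp53, between Trp53 and Cdkn1a, and narrowly between Ccng1 and Mdm2. All other neighbours overlapped. Cdkn1a stood above Trp53 in mean TPM in NFAT5 KO and below it in WT.

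**Figure D3:**
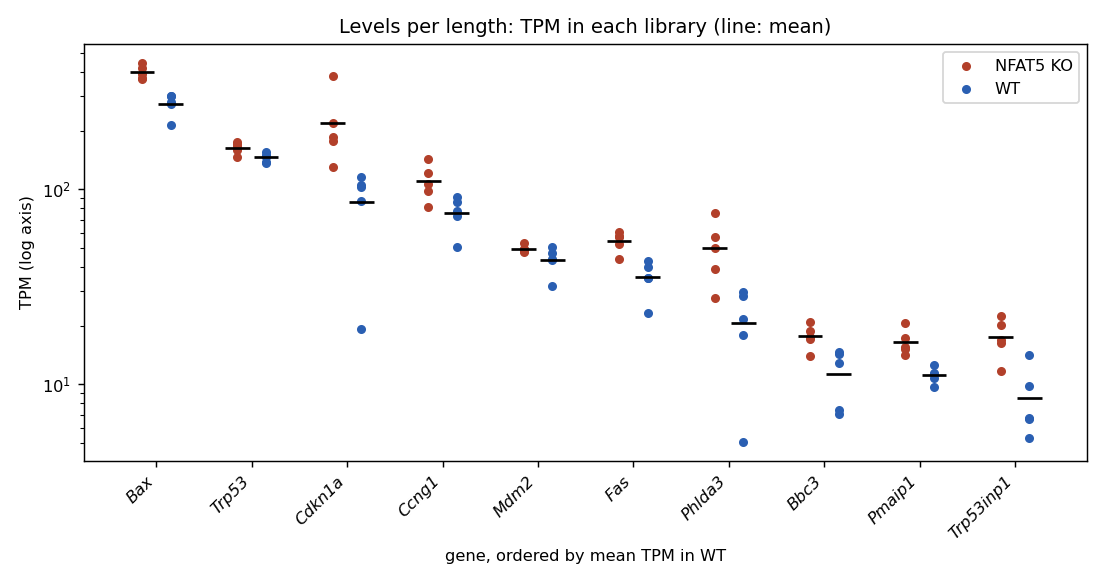
TPM per library on a log axis, with genes ordered by mean level in WT, NFAT5 KO left of WT for each gene and a line for the mean. Cdkn1a spread from 130.4 to 380.2 TPM in NFAT5 KO and from 19.3 to 116 TPM in WT, the widest range in TPM of the 10 genes in each genotype.

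Libraries of 1 genotype differed from each other in several of these genes at once. WT 679_4 was the lowest WT library in 8 of the 10 genes (80.0%), against 3361 of the 13081 genes tested (25.7%). The exceptions were Trp53 and Pmaip1, in which it was the highest. The mean deviation of WT 679_4 from the WT mean over the 10 genes was -0.58 on the log2 scale. The 10 genes were selected on values of these libraries, which can favour genes with a low WT library. The share of 80.0% and this deviation are therefore a description. NFAT5 KO 679_2 was below the NFAT5 KO mean in 10 of 10 genes, with a mean deviation of -0.29. Its deviation was small in Pmaip1 (-0.01), Trp53 (-0.04) and Mdm2 (-0.05), and largest in Phlda3 (-0.82). The share of all genes below the mean in NFAT5 KO 679_2 is not given here, so this too is a description. The highest mean deviation in NFAT5 KO was that of 678_5, at 0.23, with 7 of 10 genes above the mean. The median log2 fold change of the 10 genes was 0.50 without WT 679_4 and 0.67 without NFAT5 KO 679_2.

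Within genotype, Cdkn1a varied with Fas and with Phlda3. Of 18 relations computed over the 10 libraries, after each genotype's mean log2 CPM was taken off, these 2 passed an adjusted p of 0.05. The genes were selected on values of these libraries, which can favour a shared low WT library, and the p-values do not allow for that. How many of all genes varied as closely with Cdkn1a is not given here. Cdkn1a and Fas had a Pearson r of 0.90 (exact permutation within genotype, two-sided p = 0.000694, Benjamini-Hochberg adjusted p = 0.0125) and a Spearman rho of 0.87 (exact permutation p = 0.00153, adjusted p = 0.0275). Without the libraries farthest in Cdkn1a, NFAT5 KO 679_2 and WT 679_4, r was 0.60 (exact permutation p = 0.0174, unadjusted). For Cdkn1a and Phlda3, r was 0.94 (exact permutation p = 0.0034, adjusted p = 0.0306) and rho was 0.78 (exact permutation p = 0.00389, adjusted p = 0.035). Without the same libraries that r was 0.52 (exact permutation p = 0.243), so the relation rested on them. Cdkn1a and Trp53 had an r of -0.63 (exact permutation p = 0.178, adjusted p = 0.303). The r of Trp53 with the other 8 targets ran from -0.66 to -0.10, and none passed. Over WT libraries alone these r were all negative, from -0.87 (Bbc3) to -0.12 (Pmaip1). Over NFAT5 KO libraries alone they ran from -0.265 (Bax) to 0.96 (Bbc3), and only those of Bax and Pmaip1 were negative. The negative sign over the 10 libraries rested in part on WT 679_4. Without it r was -0.05 for Cdkn1a and Trp53, and for the other 8 targets ran from -0.54 (Pmaip1) to 0.19 (Phlda3), with Ccng1, Bax, Fas and Phlda3 positive. Cdkn1a against the mean of 12 division genes had an r of -0.07 (exact permutation p = 0.812, adjusted p = 0.824).

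The genes most like Cdkn1a within genotype, among 8494 genes whose mean log2 CPM was 3 or more, were Sytl2 (r 0.98, rho 0.98), Rrp1b (r 0.97, rho 0.95) and Serpine2 (r 0.97, rho 0.87). Without the libraries farthest in Cdkn1a their r was 0.95, 0.91 and 0.70. Those most like Trp53 were Mapre1 (r 0.96, rho 0.98), Slc46a3 (r 0.91, rho 0.77) and Eci1 (r 0.90, rho 0.83), with r of 0.90, 0.58 and 0.62 without the libraries farthest in Trp53. They were picked as the highest of all genes over 10 libraries, so these r carry no test.

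A minority of other p53 targets passed the test. Of 30 further targets 27 were tested, and 4 were higher, 1 was lower and 22 did not pass (edgeR quasi-likelihood test, Benjamini-Hochberg adjusted p below 0.05 over all genes). Their median log2 fold change was 0.30 and 21 were positive, against 0.02 and 51.8% over all genes. The share higher, 4 of 27, stands beside 3.38% of all genes, and the share lower, 1 of 27, beside 5.63%. In 5 of the 27 every NFAT5 KO library was above every WT library, beside 3.92% of all genes.

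All 4 targets that rose were in the list drawn up for cell cycle arrest and growth control, where 7 of 8 listed genes were tested. The lists were written with earlier results of these data known. Btg2, an antiproliferative gene, had 272, 292.5, 376, 278 and 326 CPM in NFAT5 KO libraries, against 177, 184, 214, 199 and 212 CPM in WT libraries. The groups were far apart, and the log2 fold change was 0.65 (SE 0.10, edgeR adjusted p = 0.00194). Plk3, a stress-response kinase of the polo family, had 46.45, 46.15, 36.8, 49.6 and 35.96 CPM in NFAT5 KO libraries, against 22.8, 32.1, 19.7, 21.9 and 24.96 CPM in WT libraries, also without overlap. Its log2 fold change was 0.82 (SE 0.16, edgeR adjusted p = 0.00586). Psrc1, which encodes a spindle protein, averaged 20.97 ± 8.34 CPM in NFAT5 KO and 8.86 ± 3.21 CPM in WT, a log2 fold change of 1.25 (SE 0.31, edgeR adjusted p = 0.0263). Zmat3, an RNA-binding protein, averaged 21.6 ± 4.46 CPM in NFAT5 KO and 11.2 ± 4.15 CPM in WT. Its log2 fold change of 0.95 (SE 0.28, edgeR adjusted p = 0.04995) lay at the threshold. When each library was left out in turn, Btg2 and Plk3 passed every time. Psrc1 was lost without WT 678_2, NFAT5 KO 678_5, WT 679_3 or NFAT5 KO 679_6, with an edgeR adjusted p of at most 0.0715. Zmat3 passed only without WT 678_4 or WT 679_4, and otherwise had an edgeR adjusted p of up to 0.118.

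Among other targets that act in cell death, 8 of 9 listed genes were tested and none was higher, beside 3.38% of all genes. Over all genes 9.01% passed in either direction. In this list and the next ones, of 5 to 8 tested genes, 0 or 1 call does not set them apart. Pidd1, which activates caspase-2, fell to 7.29 ± 2.42 CPM in NFAT5 KO, against 13.55 ± 1.43 CPM in WT (log2 fold change -0.89, SE 0.26, edgeR adjusted p = 0.0487). With 1 library left out, Pidd1 passed only without NFAT5 KO 678_3, 678_5 or 678_6, and otherwise had an edgeR adjusted p of up to 0.0982. All 5 targets in DNA repair were tested and none passed. Xpc, which recognises damage, had a log2 fold change of 0.30 (SE 0.18, edgeR adjusted p = 0.348), and Rrm2b, a subunit of ribonucleotide reductase, 0.35 (SE 0.24, edgeR adjusted p = 0.409). None of the 7 tested of 8 listed targets in metabolism and antioxidant defence passed. Closest were Dglucy, a D-glutamate cyclase, at 0.80 (SE 0.27, edgeR adjusted p = 0.0833), and Sesn2, a regulator of mTORC1, at 0.57 (SE 0.22, edgeR adjusted p = 0.137). In all, 9 of the 27 targets were higher at an unadjusted p below 0.05 (edgeR), and 8 were higher by the DESeq2 Wald test. Over all 13081 genes, in either direction, 3041 were below that unadjusted p and 1893 passed the Wald test.

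Of 21 genes that act on p53, 18 were tested, and none was higher (0 at an unadjusted p below 0.05 with edgeR, and 0 by the DESeq2 Wald test at an adjusted p below 0.05). The 0 higher and 1 lower stand beside 3.38% and 5.63% of all genes, so they do not set this list apart. Chek1, the checkpoint kinase that answers stalled replication and can phosphorylate p53, fell to 9.09 ± 2.42 CPM in NFAT5 KO, against 20.7 ± 5.50 CPM in WT. Its log2 fold change was -1.19 (SE 0.24, edgeR adjusted p = 0.00793), and it passed whichever library was left out. Mdm4, the relative of Mdm2 that blocks p53 activity, had 40.1 ± 8.72 CPM in NFAT5 KO and 30.1 ± 8.37 CPM in WT, which did not pass (log2 fold change 0.41, SE 0.21, edgeR adjusted p = 0.266). The median of the 18 was 0.16, against 0.02 over all genes.

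Genes of cell division known to be turned down through p21 fell. All 12 listed were lower, beside 5.63% of all genes, with a median log2 fold change of -2.69. The fall of division genes in these data was known when the list was written, so the count is a description. Ccna2, cyclin A2, fell to 18.4 ± 11.2 CPM in NFAT5 KO, against 165 ± 57.8 CPM in WT (log2 fold change -3.16, SE 0.37, edgeR adjusted p = 0.000377). Birc5, which encodes survivin, fell to 9.88 ± 7.35 CPM in NFAT5 KO, against 100.6 ± 32.3 CPM in WT (-3.35, SE 0.43, edgeR adjusted p = 0.000622). The mitotic genes Ccnb1, Bub1b and Cdc20 had log2 fold changes of -2.59, -2.52 and -2.92 (edgeR adjusted p = 0.000379, 0.000545 and 0.000724). These genes also mark dividing cells in general, whatever the state of p53.

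Macrophage marker RNA moved with genotype, as given above. With the mean of these markers as a covariate, the 10 genes kept positive log2 fold changes with a median of 0.53, and Cdkn1a stood at 1.04, Phlda3 at 0.92 and Trp53 at 0.14. With that covariate 1252 of all genes had an unadjusted p below 0.05 in either direction (edgeR). Of the 27 other targets 0 passed as higher with it (3 at that unadjusted p), against 4 without it. Their log2 fold changes stayed positive, at 0.66 for Btg2, 0.63 for Plk3, 0.89 for Psrc1 and 0.64 for Zmat3, against 0.65, 0.82, 1.25 and 0.95 without the covariate. What part other cells or the covariate's own link with genotype had in this was not tested.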

How the data were processed

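Per the file headers, the authors deposited 1 Salmon table per library with an estimated count (expected count, not normalized), TPM and effective length per transcript. Salmon 0.14.1 and the genome builds named GRCm38.p6 and mm10 come from the submitters' processing notes. Not given in the sources used here are the annotation release, strand setting and trimming. The deposited expected counts of transcripts matched to GENCODE M21 (99.38%) were summed per gene and rounded. The 13081 genes kept by filterByExpr were scaled by TMM and tested with edgeR 4.0.16 (quasi-likelihood, robust, R 4.3.3) over all 10 libraries with no covariate. P-values were Benjamini-Hochberg adjusted over all genes (threshold 0.05); SE is the absolute log2 fold change over the square root of F. CPM used TMM-scaled totals, and log2 CPM a prior count of 2. Depth was 22444310 to 32001285 estimated counts, and no libraries of a genotype agreed within sampling noise. TPM, scaled by the authors per library, was summed per gene for levels.

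The members and all gene lists were chosen with earlier results of these data known. Named genes are the members, up to 6 passing genes per list and direction (or the 2 with the smallest p), and the 3 genes most like Trp53 and Cdkn1a. A named gene is not reported here, though the counts over its list include it. Alternatives were other scaling, filters, a length offset, title prefix, marker covariates, DESeq2 1.42.0 and leaving out each library. The fit was tested on simulated data.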

Additional observations from a re-analysis of the deposited data

Results flagged for a closer look

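Among 52 groups of 5 libraries checked (the 10 p53 genes and the other named genes, in each genotype), 3 held a library far from the other 4 by Dixon's criterion. Chance alone flags about 1 in 20 groups. Cdkn1a had 14.87 CPM in WT 679_4, against 61.2 to 78.6 CPM in the other WT libraries. Fas had 44.86 CPM in NFAT5 KO 679_2, against 62.5 to 69.15 CPM in the other NFAT5 KO libraries. Psrc1 had 35.34 CPM in NFAT5 KO 678_5, against 14.1 to 20.3 CPM in the other NFAT5 KO libraries. The causes were not tested.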

How the results depend on the processing

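The 10 p53 genes kept positive log2 fold changes under all 21 alternatives, with a median from 0.50 (without WT 679_4) to 0.67 (without NFAT5 KO 679_2). As they were selected on these same libraries, their kept signs are a description. Over all genes, 1179 calls became 44 with the macrophage covariate, 0 within title prefix 678 (1449 at an unadjusted p below 0.05, edgeR), 325 within prefix 679 and 1893 by the DESeq2 Wald test; leaving out 1 library gave 696 (without WT 678_2) to 1276. The 4 other targets called higher became 0 with the macrophage covariate, 0 within prefix 678 and 0 within prefix 679 (3, 6 and 4 at an unadjusted p below 0.05), and 8 by the Wald test. Over all genes 1252, 1449 and 2242, in either direction, were below that unadjusted p in the covariate, prefix 678 and prefix 679 fits. Within the prefixes the log2 fold changes of Btg2, Plk3, Psrc1 and Zmat3 were 0.79, 0.65, 1.21 and 0.72 (678) and 0.53, 0.94, 1.10 and 1.03 (679). Zmat3 alone was lost, leaving 3, with DESeq2 size factors, library size alone, no filter, the length offset, the prefix term or the melanoma covariate. Leaving out 1 library gave 2 to 5; the 2 were Btg2 and Plk3, without WT 678_2, NFAT5 KO 678_5, WT 679_3 or NFAT5 KO 679_6. Pidd1, the 1 target called lower, was lost, leaving 0, with no filter, the length offset, the prefix term, either marker covariate or either prefix alone; leaving out 1 library gave 0 to 1. Chek1, the 1 regulator called lower, was lost, leaving 0, with the macrophage covariate (log2 fold change -0.90) and within prefix 678 (-1.06) or 679 (-1.36), against -1.19; leaving out 1 library gave 1 in every fit. Of the 12 division genes, 2 were called with the macrophage covariate and 0 within prefix 678 (12 at an unadjusted p below 0.05). Birc5, Ccnb1, Cdc20 and Bub1b then stood at -2.49, -2.43, -2.41 and -1.97 with the covariate and -3.12, -2.63, -2.66 and -2.64 within prefix 678. Leaving out 1 library gave 11 to 12. Fits within a prefix had 5 libraries in place of 10; the other causes were not tested. No result reversed. For single genes, 487 values held, 57 lost their call, Dglucy gained one by the Wald test, and Trp53inp1 moved within prefix 679. No paired analysis was possible because the title numbers do not repeat between genotypes within a prefix.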

Other observations

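Several genes of the p53 pathway were near or at 0 in these T cells and were not tested. Eda2r, a death receptor, and Trp63, a relative of Trp53, had 0 counts in all 10 libraries, which allows up to 0.134 CPM in the smallest library (3 counts). Trp73 averaged 0.0959 ± 0.214 CPM in NFAT5 KO and 0 in WT. Cdkn2a, which encodes the MDM2 inhibitor ARF, averaged 0.00815 ± 0.0182 CPM in NFAT5 KO and 0.0154 ± 0.0215 CPM in WT. Gdf15, a secreted p53 target, averaged 0.0807 ± 0.18 CPM in NFAT5 KO and 0.352 ± 0.349 CPM in WT, and the long noncoding RNA Trp53cor1 averaged 0.555 ± 0.592 CPM in NFAT5 KO and 0.285 ± 0.413 CPM in WT. These floors cover counting error only.

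The p53 half-site pattern was also counted in the promoter windows of the other lists. It was found in 6 of 23 other targets (26.1%), in 2 of 19 regulators (10.5%) and in 3 of 9 division genes (33.3%), against 9.55% of all genes. A match is a description of these windows and not a binding site.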
